A study of Homo sapiens with 2 samples.

Results

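The 37 genes described here are chemokines, cytokines, adhesion molecules and proteins of the NF-kappaB pathway, compared between 2 clones of the ovarian adenocarcinoma cell line SKOV3. They were listed by gene symbol, and a probe belonged to a listed gene when its RefSeq accession mapped to that symbol, with the interleukin-1 family left out. Of the 37 genes, 34 were matched to a total of 43 probes, and 31 were measured, out of 17240 genes named on the arrays and 16153 measured. For CXCL16, NFKB2 and RELA, the table used to name accessions gave no match to a probe.

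The clone cl-sh3 carries a short hairpin RNA against the transcription factor RUNX2 in the pLKO.1-puro vector, delivered by lentivirus, and the control clone is mock-transfected with the same vector encoding a scrambled sequence. Both are stable puromycin-selected clones grown in the same serum-containing medium, and the labels name no cytokine treatment. Cyanine-labelled cRNA of both clones was mixed and hybridized to Agilent whole human genome arrays, with cl-sh3 in Cy5 in hybridization 1 and in Cy3 in hybridization 2. Since 1 pair of RNAs served both hybridizations, they are 1 replicate and a technical repeat. Each group is 1 clone, so knockdown of RUNX2 and other differences between single clones cannot be told apart, and no test or p-value is possible. Each RNA came from a whole culture, and fewer expressing cells and less RNA per cell cannot be told apart. Values are log2 ratios of cl-sh3 over control after background correction and loess normalization, given for each hybridization in turn.

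NF-kappaB is a family of dimeric transcription factors built from the subunits NFKB1, NFKB2, REL, RELA and RELB. IkappaB proteins hold the dimers inactive until kinases mark them for breakdown, after which the dimers bind kappaB sites in promoters and switch on chemokines, cytokines, adhesion molecules and their own inhibitors. Ovarian carcinoma cells are known to secrete interleukin 6 and interleukin 8, the product of CXCL8, which act on the tumour cells and on neighbouring vessels and leukocytes.

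RUNX2 was lower in the knockdown clone by its brightest probe, with log2 ratios of -2.04 and -1.30, while a dimmer probe of the same transcript had 0.17 and -0.13 and a probe of another RUNX2 transcript had -0.29 and -0.17. Of 12 epithelial and ovarian markers, 12 were measured, 9 were higher in both hybridizations and their median log2 ratio was 0.35. Among all measured genes 30.9% were higher in both. ERBB2 was the 1 marker lower in both by its brightest probe, with -0.86 and -0.45, while a dimmer ERBB2 probe had 0.26 and 0.18. Leukocyte markers (8 of 9 measured, median log2 ratio 0.10), endothelial markers (6 of 7, median 0.02) and fibroblast markers (5 of 7, median -0.10) included 0 genes past 1.5-fold. These markers of other cells passed the measurement filter, so passing it does not by itself show that a gene is expressed. The part of the shift in epithelial markers in the results below was not tested. Between 77.3% and 93.9% of spots per channel were well above background, and no spot was saturated.

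Most of the measured genes differed little between the clones. The pentraxin PTX3 was the 1 gene of the 31 whose ratio was 2-fold or more below the control in each hybridization, the rule by which the study selected genes. Among all measured genes 0.52% met that rule. No member was at least 2-fold higher in both, against 0.136% of all genes. Over all 16153 genes, 84 were at least 2-fold lower and 22 higher, and with median centring in place of loess 73 were lower and 44 higher. With the authors' deposited ratios, 116 of 16155 genes were lower and 46 higher. The paper reports more genes in both directions, and the cause of this difference was not tested. At 1.5-fold, PTX3 and CXCL8 were lower, which is 2 of 31 members against 2.61% of all genes, and 0 members were higher, against 1.6%. By sign alone, 14 of 31 members (45.2%) were lower in both hybridizations, 5 (16.1%) were higher and 12 differed in sign. The corresponding shares of all genes were 28.4% lower and 30.9% higher. The median log2 ratio of the members was -0.09, with -0.06 and -0.15 in the single hybridizations, beside 0.01 for all genes. These counts describe 1 pair of clones and are not a test of the list.

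**Figure D1:**
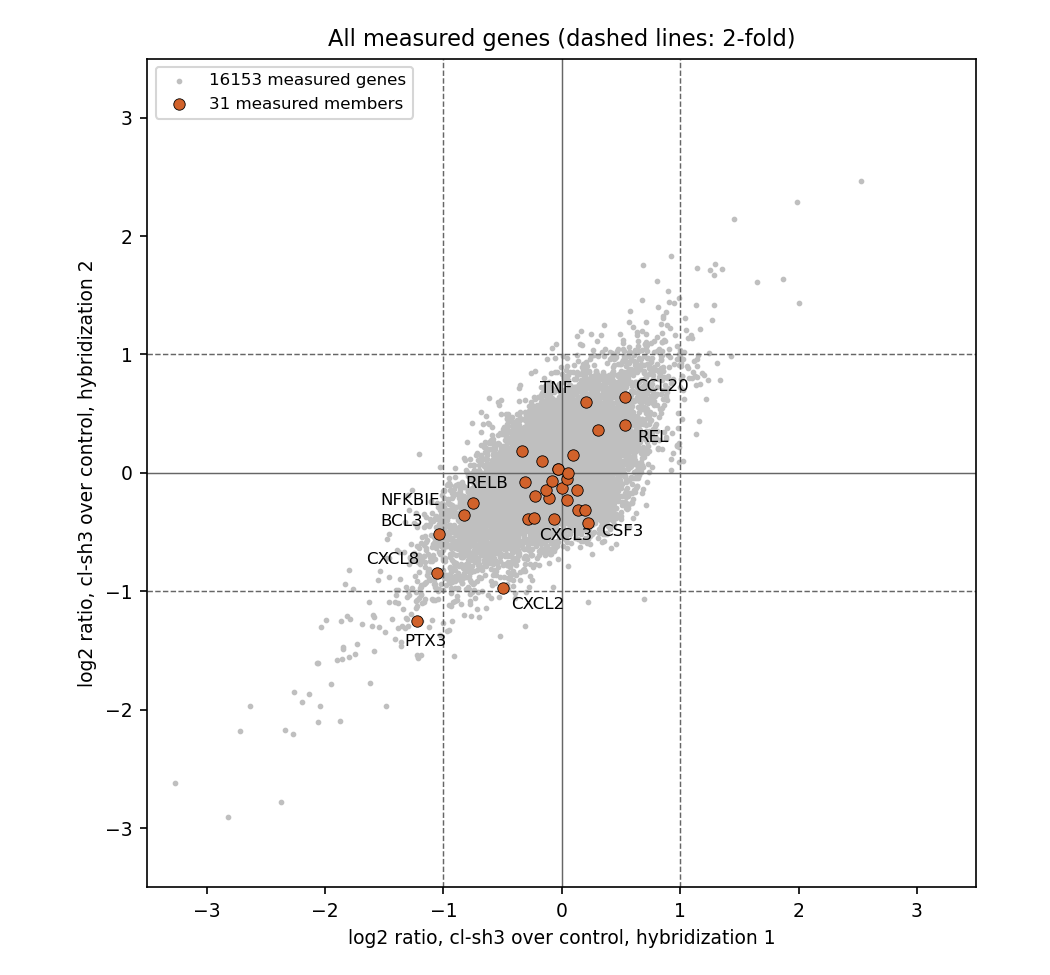
Log2 ratio of cl-sh3 over control in hybridization 1 (horizontal axis) and hybridization 2 (vertical axis) for the 16153 measured genes (grey) and the 31 measured members (orange), with dashed lines at 2-fold. PTX3 is the only member inside the lower left 2-fold corner, CXCL8 and BCL3 pass the line in hybridization 1 alone, and no member lies beyond 2-fold on the upper right.

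The difference between hybridizations shows the technical error. Between the hybridizations, the median gap of a member's log2 ratio was 0.15 and the largest was 0.65, that of CSF3. Over all genes the median gap was 0.23, and 95% of genes had a gap of up to 0.64.

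PTX3, a secreted pattern recognition protein that binds microbes and complement, is induced by interleukin 1 and TNF. Its probe was spotted 10 times on each array. In hybridization 1 its normalised intensity was 956 in cl-sh3 and 2230 in the control, and in hybridization 2 it was 800 in cl-sh3 and 1906 in the control. The control signal was higher in both hybridizations. Intensities were normalised within each array and are compared within a hybridization only. The log2 ratios were -1.22 ± 0.20 and -1.25 ± 0.15 (mean ± SD of 10 spots), and single spots lay from -1.57 to -0.98 in hybridization 1 and from -1.52 to -1.10 in hybridization 2. The mean of both hybridizations was -1.24 ± 0.02 (SD, n = 2 hybridizations), or 2.36-fold lower, at rank 62 from the lowest of 16153 genes.

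The 250 bases before the RefSeq start of PTX3 (assembly GRCh38.p14) are shown because PTX3 is the member with the largest difference. Capitals mark matches to the kappaB consensus, the degenerate sequence bound by NF-kappaB dimers, which was searched on both strands. PTX3 has overlapping matches on both strands, from -97 to -88 and from -96 to -87 relative to the start, and no match to TGTGGT, a form of the site bound by RUNX proteins.
PTX3 (chr3:157436600-157436849, plus strand): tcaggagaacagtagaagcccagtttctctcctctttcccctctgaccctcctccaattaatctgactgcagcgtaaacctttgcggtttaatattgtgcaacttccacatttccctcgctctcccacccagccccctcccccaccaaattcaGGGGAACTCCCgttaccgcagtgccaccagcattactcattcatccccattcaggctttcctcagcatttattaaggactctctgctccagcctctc

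The ELR CXC chemokines are small secreted proteins that attract neutrophils through the receptors CXCR1 and CXCR2 and promote vessel growth. All 6 listed were measured, 4 were lower in both hybridizations, 0 were higher in both, and their median log2 ratio was -0.26. Among all measured genes 28.4% were lower in both and 30.9% higher. The 4 include CXCL1, whose direction depends on the normalization, and CXCL2, whose probes disagree. CXCL8, the gene of interleukin 8, was the lowest of the 6. Its normalised intensity was 1819 in cl-sh3 and 3771 in the control in hybridization 1, and 1488 and 2667 in hybridization 2. Its log2 ratios were -1.05 and -0.84, a mean of -0.95 ± 0.15 (SD, n = 2 hybridizations) or 1.93-fold lower, at rank 161 from the lowest. CXCL8 therefore passed 2-fold in hybridization 1 and stayed just under it in hybridization 2.

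CXCL2 had probes that disagreed. The brighter one gave intensities of 5366 in cl-sh3 and 7574 in the control in hybridization 1, and 4144 and 8119 in hybridization 2. Its log2 ratios were -0.50 and -0.97, and those of the dimmer probe of the same transcript were -0.15 and -0.01. In each hybridization the dimmer probe was nearer to 0.

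CXCL3 was lower by both of its probes, with log2 ratios of -0.28 and -0.39 for the brighter and -0.68 and -0.51 for the dimmer probe. CXCL1, whose product is also known as GRO alpha, had a normalised intensity of 113254 in cl-sh3 and 140560 in the control in hybridization 1, and 110151 and 116129 in hybridization 2. The log2 ratios of -0.31 and -0.08 turned to a mean of 0.04 with median centring, so CXCL1 has no settled direction. CXCL5 (-0.03 and 0.03, with 0.13 and -0.04 by a dimmer probe) and CXCL6 (0.05 and -0.23) differed in sign between the hybridizations, and the control signal of CXCL6 was well above background in hybridization 1 only. The coding sequences of CXCL1, CXCL2 and CXCL3 are close to each other, and cross-hybridization between them was not tested.

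In the RefSeq gene order of chromosome 4, these 6 genes lie in 1 cluster with PF4V1, PF4 and PPBP, chemokine genes of platelets. The order was CXCL8, CXCL6, PF4V1, CXCL1, PF4, PPBP, CXCL5, CXCL3 and CXCL2. By their brightest probes CXCL8 and CXCL2, the first and the last of the cluster, had the lowest mean ratios of the 9. With the mean of all kept probes in place of the brightest, CXCL3 (-0.47) was lower than CXCL2 (-0.41). The log2 ratios of the platelet genes were -0.08 and 0.24 for PF4V1, -0.02 and 0.15 for PF4, and -0.03 and 0.01 for PPBP.

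All 6 promoters held the 9 letters GGAATTTCC at a like distance from the start, which are shown because the genes share them while their ratios differ. Among all 27305 RefSeq promoters of the same length (250 bases before to 50 after the start) 129, or 0.472%, held these letters on either strand. Of the 29 matched member promoters 10 (34.5%) held them, those of ICAM1, NFKB1, NFKBIA and REL besides these 6. Capitals mark the kappaB consensus match of CXCL1, CXCL2, CXCL3, CXCL5 and CXCL6, which contains the 9 letters and in all 5 overlaps a second match on the other strand. In CXCL8 capitals mark the 9 letters, from -91 to -83, because the full consensus was not met in this window. None of the 6 promoters held TGTGGT.
CXCL1 (chr4:73869304-73869333, plus strand): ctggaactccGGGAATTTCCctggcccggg
CXCL2 (chr4:74099254-74099283, minus strand): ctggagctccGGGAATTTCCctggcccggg
CXCL3 (chr4:74038749-74038778, minus strand): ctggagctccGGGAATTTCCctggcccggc
CXCL5 (chr4:73998749-73998778, minus strand): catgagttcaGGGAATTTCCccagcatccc
CXCL6 (chr4:73836578-73836607, plus strand): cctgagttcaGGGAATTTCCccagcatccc
CXCL8 (chr4:73740319-73740568, plus strand): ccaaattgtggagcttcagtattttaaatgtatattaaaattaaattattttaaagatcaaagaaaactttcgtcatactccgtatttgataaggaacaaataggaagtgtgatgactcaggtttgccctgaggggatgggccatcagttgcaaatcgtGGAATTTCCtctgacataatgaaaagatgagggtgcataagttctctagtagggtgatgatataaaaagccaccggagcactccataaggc

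CXCL2 and CXCL5, whose mean log2 ratios by their brightest probes were -0.73 and 0.00, thus carry the same 10 capital letters. By the dimmer CXCL2 probe the mean was -0.08, so the size of this difference depends on the probe. The match lay from -78 to -69 in CXCL2 and from -91 to -82 in CXCL5. A match is a description of the window and not a measured binding site.

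Of the other chemokines, CCL20 was the highest member. CCL20 attracts dendritic cells and lymphocytes through the receptor CCR6. Its normalised intensity was 375 in cl-sh3 and 259 in the control in hybridization 1, and 393 and 252 in hybridization 2. The cl-sh3 value was above the control value in each hybridization. The log2 ratios were 0.53 and 0.64, with a mean of 0.59 ± 0.08 (SD, n = 2 hybridizations), and fell short of 1.5-fold in hybridization 1. CCL2 (0.05 and -0.05 over 10 spots) and CCL5 (0.13 and -0.15) attract monocytes and T cells, respectively, and lay near 0. For CCL5 the control signal was well above background in hybridization 1 only. CXCL12, the ligand of CXCR4, had log2 ratios of -0.11 ± 0.11 and -0.21 ± 0.17 (mean ± SD of 10 spots). Its normalised intensity was low, at 220 in cl-sh3 and 237 in the control in hybridization 1, and 178 and 206 in hybridization 2. Neither RNA was well above background at a probe of a different CXCL12 transcript. The paper chose CXCL12 as a differentially expressed gene for quantitative PCR and reports it lower in cl-sh3. Neither CXCL12 probe matched here reached 2-fold, and the cause of this difference was not tested.

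The CCL20 promoter held 1 match to the kappaB consensus, on the opposite strand from -79 to -70, and is shown because CCL20 had the opposite direction to CXCL8 and CXCL2.
CCL20 (chr2:227813753-227813782, plus strand): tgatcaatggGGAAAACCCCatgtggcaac

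The IL-6 family cytokines signal through the shared receptor chain IL6ST and the transcription factor STAT3. IL6 itself had a normalised intensity of 2786 in cl-sh3 and 3061 in the control in hybridization 1, and 2405 and 2657 in hybridization 2. Its log2 ratios of -0.14 ± 0.11 and -0.14 ± 0.08 (mean ± SD of 10 spots) agree within the spread of the spots. IL11 (-0.33 and 0.18) and LIF (0.20 and -0.31) differed in sign between the hybridizations. No member of this family thus reached 1.5-fold.

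The IL6 promoter held 1 kappaB consensus match from -73 to -64, shown because IL6 barely differed between the clones while PTX3, also with a match, was lower.
IL6 (chr7:22727117-22727146, plus strand): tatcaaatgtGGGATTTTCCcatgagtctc

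The colony-stimulating factors drive growth and survival of myeloid cells, and they differed in direction. CSF1, the macrophage factor, had log2 ratios of -0.24 and -0.38. CSF2, which acts on granulocytes and macrophages, had 0.31 and 0.36, from intensities of 519 in cl-sh3 and 419 in the control in hybridization 1 and of 483 and 375 in hybridization 2. CSF3, the granulocyte factor, had 0.22 and -0.42, the largest gap between the hybridizations among the members. The CSF2 promoter was the only member promoter that held TGTGGT, from -58 to -53, which is in capitals here.
CSF2 (chr5:132073721-132073746, plus strand): cctggcatttTGTGGTcaccattaat

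TNF, which activates NF-kappaB through the receptor TNFRSF1A, had log2 ratios of 0.20 and 0.60 by its brighter probe. The dimmer TNF probe, spotted 10 times, gave 0.02 and 0.14. TSLP, a cytokine of epithelia that acts on dendritic cells, was not well above background in either RNA. For SELE and VCAM1, endothelial adhesion molecules, the control RNA was well above background in hybridization 1 only, and the cl-sh3 RNA in neither (SELE) or in hybridization 2 only (VCAM1). The measured log2 ratios were -0.15 and -0.46 for SELE and -0.10 and 0.02 for VCAM1, and no fold is given for either. The paper lists SELE among the main gene nodes that were lower after RUNX2 knockdown. ICAM1, which binds leukocyte integrins, was measured in both RNAs, with log2 ratios of -0.22 ± 0.13 and -0.20 ± 0.10 (mean ± SD of 10 spots) or 1.16-fold lower. All 20 single ICAM1 spots had a ratio below 0.

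**Figure D2:**
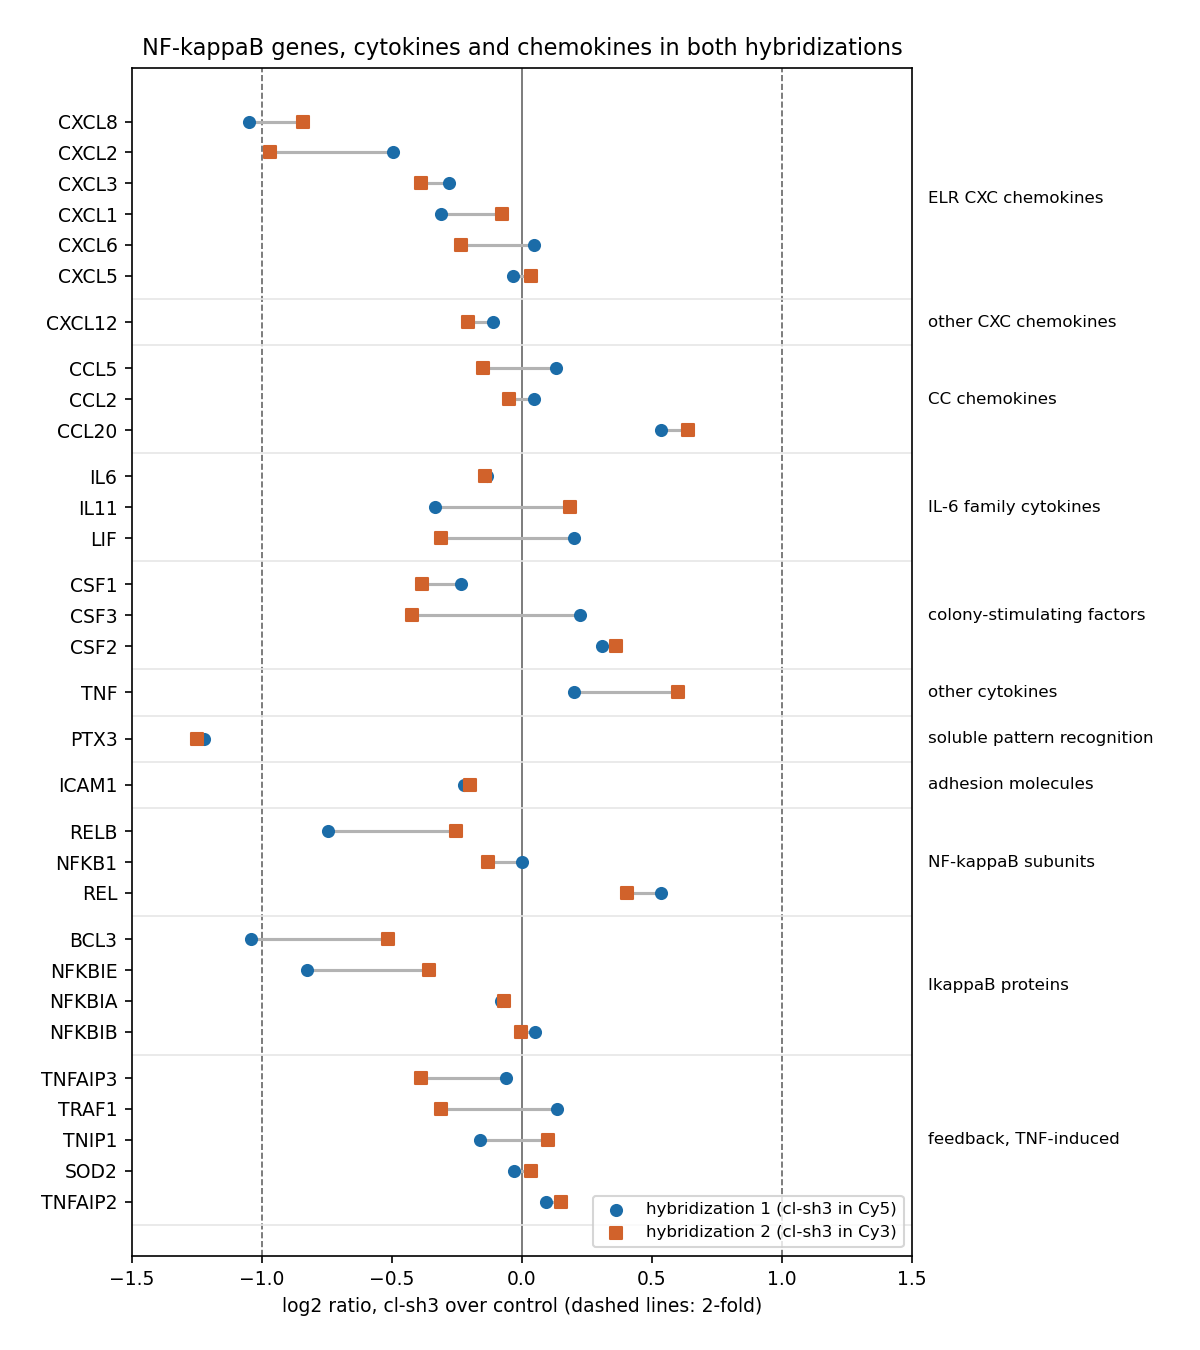
Log2 ratio of cl-sh3 over control (horizontal axis) of each measured member in hybridization 1 (circles) and hybridization 2 (squares), grouped by role, with dashed lines at 2-fold. PTX3, CXCL8, CXCL2, BCL3, NFKBIE and RELB lie farthest to the left, CCL20, REL and TNF to the right, and CSF3, LIF and IL11 are among the genes that span 0.

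Among the NF-kappaB subunits, RELB was lower and REL higher in cl-sh3. RELB, a subunit of the noncanonical pathway, had a normalised intensity of 12723 in cl-sh3 and 21338 in the control in hybridization 1, and 17047 and 20332 in hybridization 2. Its log2 ratios were -0.75 and -0.25, so the direction was shared but the size differed between the hybridizations. REL, the subunit prominent in lymphocytes, had intensities of 644 in cl-sh3 and 445 in the control in hybridization 1, and 650 and 491 in hybridization 2, with log2 ratios of 0.53 and 0.41. NFKB1, the precursor of the p50 subunit, had 0.00 ± 0.06 and -0.13 ± 0.04 (mean ± SD of 8 spots).

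Of the 4 IkappaB genes, 3 were lower in both hybridizations and 1 differed in sign, beside 28.4% of all measured genes lower in both. The 3 include NFKBIA, which lay near 0. BCL3, a nuclear member that works with p50 and p52 as a coactivator, had a normalised intensity of 27205 in cl-sh3 and 55960 in the control in hybridization 1, and 28526 and 40800 in hybridization 2. Its log2 ratios were -1.04 and -0.52, a mean of -0.78 ± 0.37 (SD, n = 2 hybridizations) or 1.72-fold lower. NFKBIE, the gene of IkappaB epsilon, had 2474 in cl-sh3 and 4391 in the control in hybridization 1, and 2602 and 3335 in hybridization 2. Its log2 ratios were -0.83 and -0.36. In each hybridization the cl-sh3 values of BCL3 and NFKBIE were below the control values. BCL3, NFKBIE and RELB each had a ratio nearer to 0 by 0.47 or more when cl-sh3 carried Cy3. NFKBIA, the classical inhibitor and a standard readout of NF-kappaB activity, lay at -0.08 and -0.07, and turned to a mean of 0.10 with median centring. NFKBIB lay at 0.05 and 0.00.

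Matches to the kappaB consensus of BCL3, NFKBIA, NFKB1 and REL are shown because these pathway genes carry them while their ratios ran from lower to higher. The BCL3 match lies just after the start, from 3 to 12, and the others lie before it, from -81 to -72 in NFKBIA, from -49 to -40 in NFKB1 and from -47 to -38 in REL. In BCL3 and NFKBIA the match is on the opposite strand. REL has a further, overlapping match on the opposite strand from -46 to -37.
BCL3 (chr19:44748700-44748729, plus strand): ccggctgcagGGGAAGTCCCggcgcccggc
NFKBIA (chr14:35404811-35404840, minus strand): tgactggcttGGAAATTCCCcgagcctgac
NFKB1 (chr4:102501300-102501329, plus strand): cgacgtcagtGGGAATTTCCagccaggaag
REL (chr2:60881517-60881546, plus strand): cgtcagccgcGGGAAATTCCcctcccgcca

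**Figure D3:**
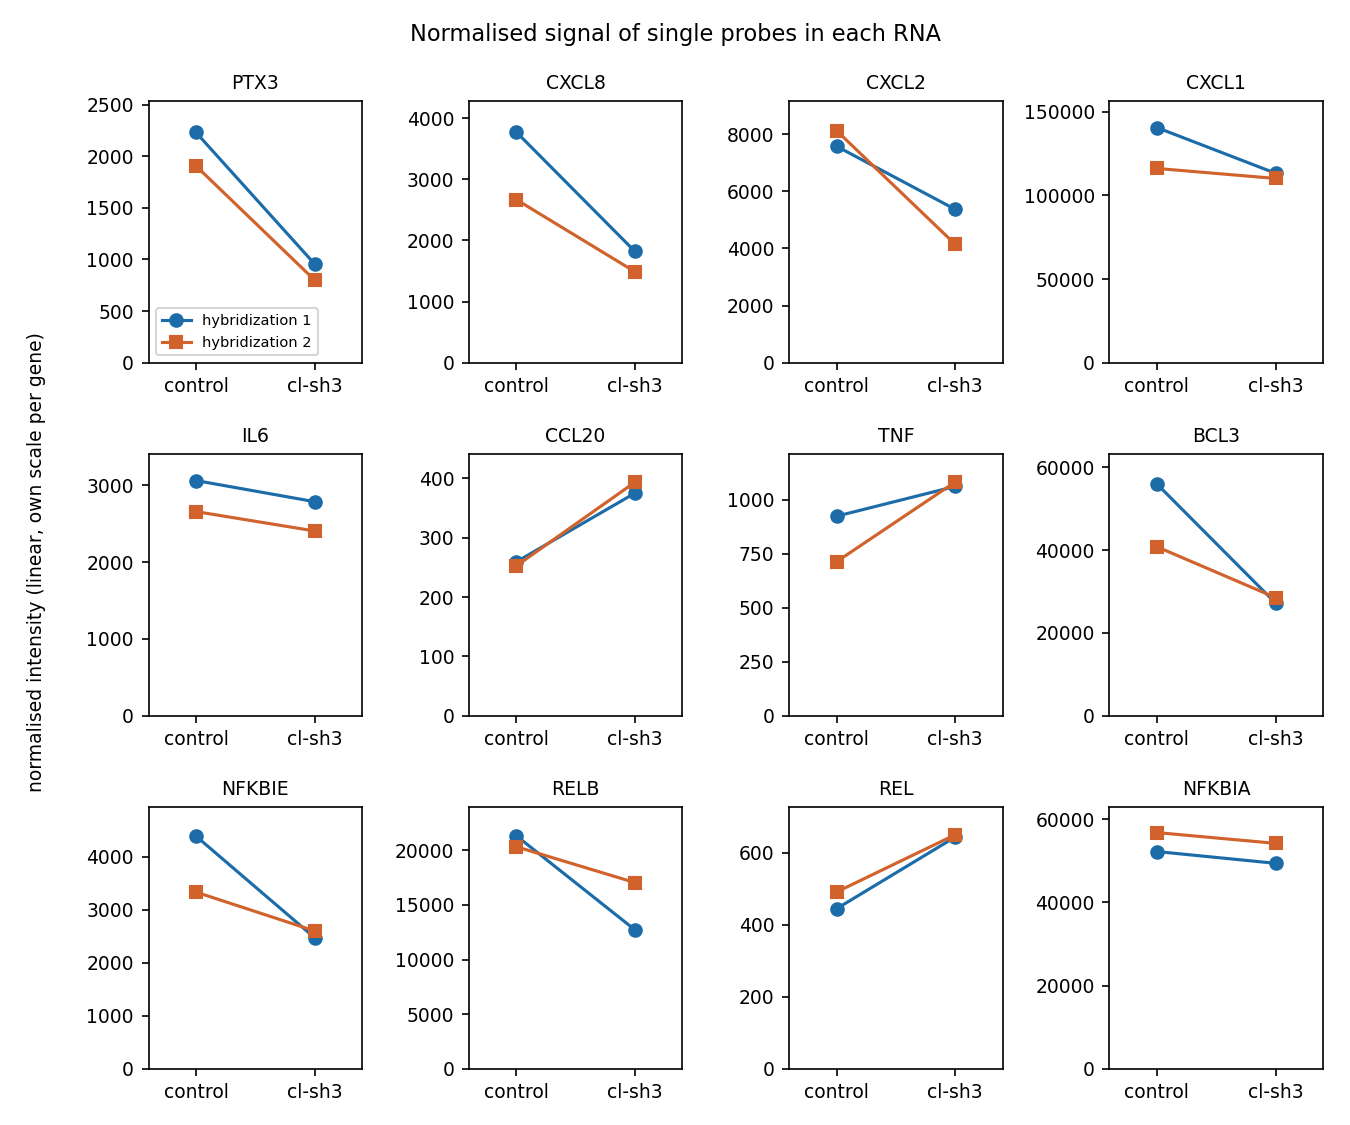
Normalised intensity (vertical axis, linear and starting at 0, with a scale of its own for each gene) of the control and cl-sh3 RNA in hybridization 1 (circles) and hybridization 2 (squares) for 12 members. PTX3, CXCL8, CXCL2, BCL3, NFKBIE and RELB slope down to cl-sh3 in both hybridizations, CCL20, TNF and REL slope up, and IL6 and NFKBIA are almost level.

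None of the feedback and TNF-induced genes reached 1.5-fold in either hybridization. TNFAIP3, the deubiquitinase A20 that ends NF-kappaB signalling, had log2 ratios of -0.06 and -0.39. TNIP1, its binding partner, had -0.16 and 0.10 by its brighter probe and 0.03 and 0.45 by the dimmer one. TRAF1, an adaptor of TNF receptors, had 0.13 and -0.31 by its brighter probe and 0.10 and 0.09 by the dimmer one. SOD2, the mitochondrial superoxide dismutase, had -0.03 and 0.04, and TNFAIP2 had 0.09 and 0.15. By their brightest probes, 1 of the 5 genes was lower in both hybridizations, 1 was higher and 3 differed in sign, while the dimmer probes of TNIP1 and TRAF1 were higher in both. The signals of SOD2 and TNFAIP2 were bright, at 29823 in cl-sh3 and 30457 in the control for SOD2 and at 42302 and 39632 for TNFAIP2 in hybridization 1. The TNFAIP3 promoter held 2 separate kappaB consensus matches on the opposite strand, from -67 to -58 and from -55 to -46, and its ratio stayed small.
TNFAIP3 (chr6:137867182-137867211, plus strand): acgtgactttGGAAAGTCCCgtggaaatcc
TNFAIP3 (chr6:137867194-137867223, plus strand): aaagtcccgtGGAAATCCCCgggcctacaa

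RefSeq promoters were matched for 29 of the 37 genes, and 15 of the 29 (51.7%) held the kappaB consensus, beside 5.72% of all 27305 promoters. Many of the listed genes are known NF-kappaB targets, so this share says nothing about the clones. By direction, 8 of the 11 promoters of genes lower in both hybridizations held the consensus, as did 2 of 5 of genes higher in both and 3 of 8 of genes whose sign differed. The 8 include CXCL1, CXCL2 and CXCL3, genes of 1 cluster that share the same matched letters. CXCL1 and NFKBIA, also among the 8, turned above 0 with median centring, and whether these shares differ was not tested. Over all genes, 6.59% of the 12851 promoters of measured genes held the consensus, 7.29% of those of genes lower in both hybridizations and 2 of the 65 of genes at least 2-fold lower. TGTGGT was found in 1 of the 29 promoters (3.45%), beside 13.1% of all promoters and 10.3% of those of measured genes. It was in 8 of the 65 promoters of genes at least 2-fold lower (12.3%).

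The machinery upstream of NF-kappaB and the receptors of the ligands included no gene 2-fold changed in both hybridizations. Of 37 kinases, adaptors and ubiquitin ligases, 36 were measured. By their brightest probes 0 passed 1.5-fold in both, 16 were lower and 11 higher, and the median log2 ratio was -0.03. RIPK2, a kinase of this list, had -0.90 and -0.48 by its brightest probe. Its dimmer probe had -1.08 and -0.88 and was past 1.5-fold in both. Of 26 receptors, 23 were measured, 5 were lower and 6 higher, and the median was 0.02. IL6R, the ligand-binding chain of the interleukin 6 receptor, was the only receptor past 1.5-fold, with log2 ratios of 0.59 and 0.84. Of 8 genes of JAK-STAT3 signalling, through which the IL-6 family acts, 1 was lower and 4 were higher in both by their brightest probes, with a median of 0.04. Over all measured genes 28.4% were lower and 30.9% higher in both.

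A list of 30 further NF-kappaB target genes ran in both directions. Of the 27 measured, 7 were lower and 11 higher in both hybridizations, beside 28.4% and 30.9% of all measured genes, and their median was 0.03. SAA1 (0.88 and 1.25) and SAA2 (0.90 and 1.00), acute-phase proteins, were the 2 genes past 1.5-fold, both higher in cl-sh3, and whether their near-identical transcripts share signal was not tested. For comparison, the interleukin-1 family, inflammatory cytokines that themselves activate NF-kappaB, held 19 measured genes with a median of 0.02, of which IL1A was lower at -2.72 and -2.18. IL1A was the only gene of that family past 1.5-fold, as PTX3 and CXCL8 were the only members.

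**Figure D4:**
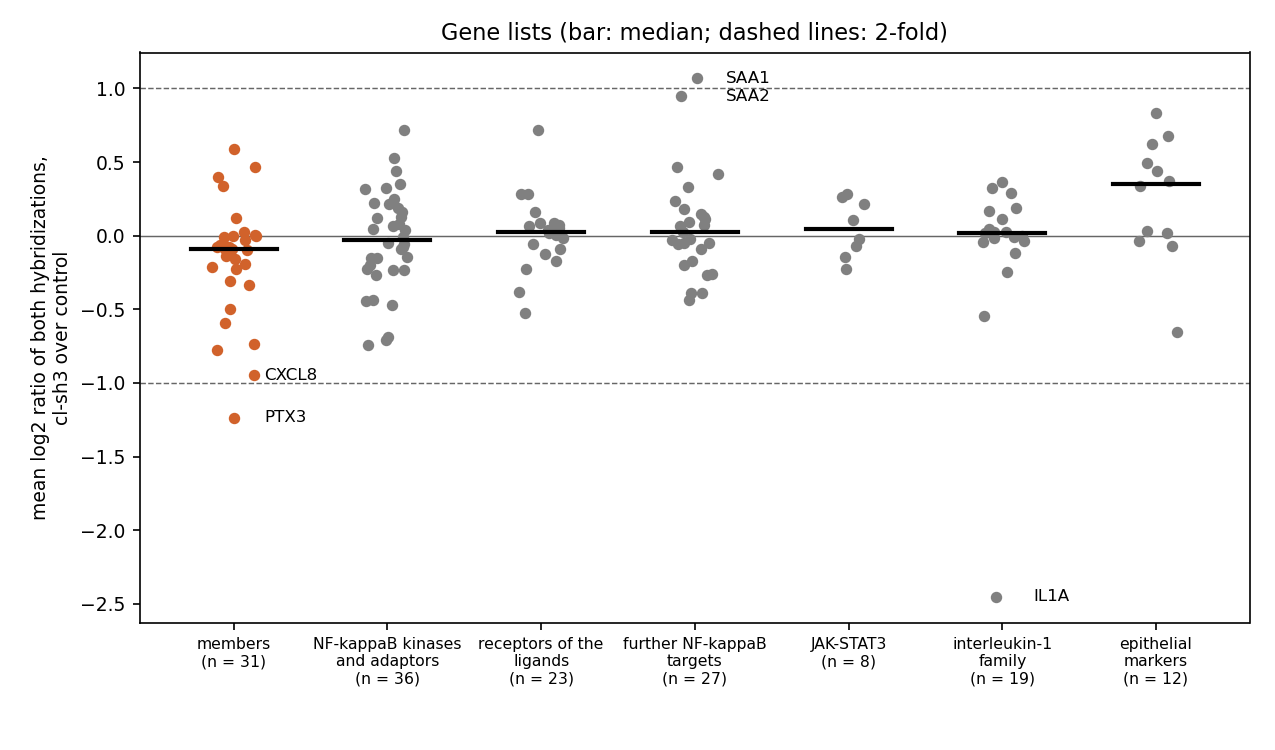
Mean log2 ratio of both hybridizations (vertical axis) for each measured gene of the members and of 6 comparison lists, with the median as a bar and dashed lines at 2-fold. PTX3 and CXCL8 stand at the bottom of the members, SAA1 and SAA2 at the top of the further targets, IL1A far below the rest of the interleukin-1 family, and the epithelial markers have a median of 0.35, with ERBB2 below 0 at a mean of -0.66.

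Of the 9 members with several probes, 7 had more than 1 measured probe. The means of the probes of a gene differed most for CXCL2, by 0.65, followed by TNF with 0.32. Under 13 alternative processings PTX3 stayed at least 2-fold lower in both hybridizations, with means from -1.28 to -1.17. Several of these cannot change the value of a gene with a single probe. CXCL8 ran from -1.05 to -0.84, BCL3 from -1.04 to -0.52, CXCL2 from -0.97 to -0.41, NFKBIE from -0.83 to -0.36 and RELB from -0.75 to -0.25, all below 0 under each alternative. CCL20 ran from 0.39 to 0.74 and REL from 0.39 to 0.59.

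**Figure D5:**
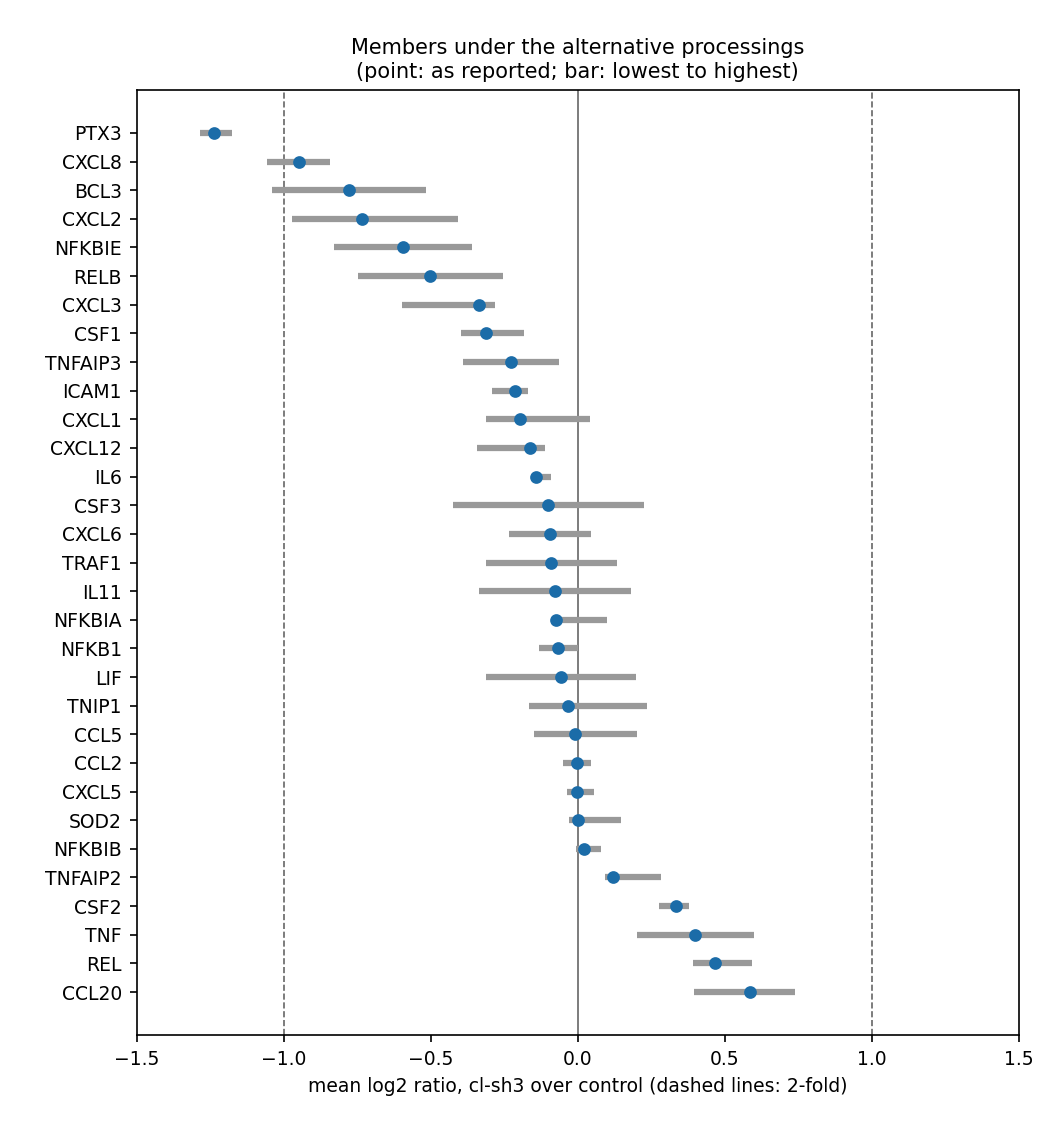
Mean log2 ratio of each measured member (horizontal axis) as reported (point) and its lowest and highest value under up to 13 alternative processings (bar), with dashed lines at 2-fold. PTX3 alone stays left of the 2-fold line. The bars of CSF3, IL11, LIF, CXCL1, CXCL5, CXCL6, CCL2, CCL5, NFKB1, NFKBIA, NFKBIB, TNIP1, TRAF1 and SOD2 cross 0.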

How the data were processed

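RNA of cl-sh3 and of the control clone was compared in 2 hybridizations with reversed dyes, counted as 1 replicate. The authors deposited the intensity of every spot from Agilent Feature Extraction (version 10.5.1.1 in the file headers, 8.5.1.1 in the submitters' processing notes) and log10 ratios of Cy5 over Cy3, both in the scanner files and as a table. These log10 ratios were used as alternatives only.

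Median spot intensities over the median local background were corrected by the normexp method of limma 3.58.1 (offset 50, R 4.3.3). Control spots were then removed, flagged outliers (153 and 144 spots) set to missing, and loess applied within each array. Spots of a probe were averaged, and the sign of the dye swap was turned. A probe counted as measured when either RNA was well above background at 50% or more of its spots in both hybridizations. A gene is given by its brightest probe. The normalization and the 2-fold rule were run on simulated data with changes well above 2-fold in brighter probes. Calls near 2-fold were therefore not tested. Other steps used Python 3.11.15, numpy 2.4.6, pandas 2.3.3 and matplotlib 3.10.9.

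RefSeq accessions were named without versions through a table of GRCh38.p14, which held 18023 of 19228, and the RUNX2 transcript through the study's supplement. Promoter sequences are from RefSeq. The members and gene lists were chosen with earlier results of these data known. Named are all members, RUNX2 and genes of the other lists at least 1.5-fold changed in both hybridizations. ERBB2, RIPK2, the platelet chemokine genes and genes of the closing section were chosen after their values were seen. Precision is limited by the number of arrays, which show technical error alone.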

Additional observations from a re-analysis of the deposited data

How the results depend on the processing

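PTX3 was at least 2-fold lower in both hybridizations under all 13 alternatives to the processing. Several of these could not change its value, because PTX3 has a single probe that was well above background in both RNAs. The settings with a single hybridization follow from the main result, and the software's log ratio and the deposited table hold almost the same values. The mean log2 ratio of PTX3, -1.24, became -1.28 with offset 0, with the software's log ratio and with the deposited table. It was -1.17 without background correction and -1.18 with median centring. The count of 1 member at least 2-fold lower ran from 1 to 3 with a single hybridization, where CXCL8 and BCL3 were added in hybridization 1, and was 2 at 1.5-fold. The count of 14 members lower in both ran from 18 to 22 with a single hybridization, as a single sign is easier to meet. The count of 0 members at least 2-fold higher did not change. The median of the members ran from -0.15 to -0.06 over the single hybridizations. Of the values of single members, 355 moved by less than the spread between hybridizations and 33 by more. With median centring, CXCL1 (0.04), NFKBIA (0.10), CXCL5 (0.06), CCL2 (0.05) and TNIP1 (0.06) turned from below to above 0. With the software's log ratio CCL5 turned to 0.20 and CXCL12 became -0.34, and CCL2 (0.02) and TNIP1 (0.06) turned as well. The dimmer probes turned the means of TNIP1 and TRAF1. No paired analysis was possible because the arrays hold 1 pair of RNAs. Dim signal limits TSLP, SELE, VCAM1, CXCL6 and CCL5 most. CXCL12, CSF1, IL11, ICAM1 and CCL20 were also dim, with cl-sh3 intensities in hybridization 1 of 220, 229, 298, 331 and 375. Markers of other cells reached similar values there, with 232.5 for PTPRC and 343.5 for VWF, so these ratios are limited as well.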

Other observations

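The related genes BIRC3 and BIRC2, which act upstream of NF-kappaB, differed in direction. BIRC3, itself a known NF-kappaB target, had log2 ratios of 0.41 and 1.02, and BIRC2, a ubiquitin ligase of the same TNF receptor complex, had -1.02 and -0.46. The adaptor TAB2 had -0.99 and -0.42 and its homolog TAB3 had -0.14 and -0.31. The atypical receptor ACKR3, which binds CXCL12, had -0.44 and -0.60, while CXCR4 had -0.02 and -0.01. LIFR, the receptor of LIF, was lower by all 3 of its probes, with means from -0.41 to -0.27.

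JAK1, which the paper lists among upregulated genes of apoptosis, had 2 measured probes of the same transcript that disagreed. The probe that represents it had log2 ratios of -0.41 and 0.12, and the other had 1.27 and 1.30. The cause was not tested.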
